A study of Homo sapiens with 18 samples.

Results

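Silencing of RagC was followed by RNA sequencing in MDA-MB-231, a cell line derived from a human triple-negative breast cancer. The comparison pooled 2 siRNAs against RagC (siRagC1 and siRagC2, 2 libraries each) and set these 4 knock-down libraries against 2 libraries of a control siRNA (siCtrl). These 6 of the 18 libraries in the study carry the library code D1103 and are numbered 1 and 2 within each group; the other 12 carry the code D1221 (4 siCtrl and 8 knock-down libraries), and the labels do not say what sets the codes apart. Cells of every group were wild type by their label, were lipofected with siRNA for 72 hours, and gave 500 ng of total RNA per library. The study asked which genes respond when mTORC1 is repressed. The labels call the numbered libraries biological replicates but name no culture or day, so the p-values below describe the spread between these libraries, part of which may be technical. Control levels rest on a pair of libraries and are given as 2 values, without an SD.

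mTORC1 is a kinase complex that promotes cell growth when amino acids and growth factors are available. RagC, a small GTPase encoded by RRAGC, pairs with RagA or RagB on the lysosome, where the Ragulator complex anchors the pair and the pair recruits mTORC1. The folliculin complex (FLCN with FNIP1 or FNIP2) switches RagC into the form that also binds the MiT/TFE transcription factors TFEB, TFE3 and MITF, so that mTORC1 can phosphorylate them and keep them out of the nucleus. When released, these factors switch on genes of lysosomes and autophagy, while mTORC1 activity itself is known to favour ribosome production, nucleotide synthesis and entry into the cell cycle.

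Depth was lowest in siRagC2 1 (27.64 M counts) and highest in siCtrl 2 (44.26 M), and 5.28% to 6.63% of counts came from mitochondrial genes. The first principal component (29.1% of the variance of log levels) placed siCtrl 1 apart at -30.6, with siCtrl 2 at -6.43 and the knock-down libraries between 1.34 and 18.2. The 2 controls differed more from each other than did the replicates of either RagC siRNA by the following measure. For each gene above a minimum count, the squared deviation between replicates was divided by that gene's counting variance. The mean of this ratio over genes was 13.6 for siCtrl, 6.69 for siRagC1 and 7.51 for siRagC2. Markers of the line were present, with VIM at 5070, AXL at 1250 and CD44 at 839 CPM (counts scaled by the size of the library) over the 6 libraries, although SPARC stood at 1.57. The summed level of the 14 markers of the line ran from 11300 to 12300 CPM in the controls and from 11200 to 11900 in the knock-down libraries. The 12 luminal breast markers summed to 860 to 967 CPM in the controls and 844 to 980 in the knock-down libraries; KRT19 (453), MLPH (172) and ERBB2 (107) were the highest, while ESR1, PGR and FOXA1 were near 0 (0.0291, 0.0842 and 0.04 CPM). The 11 leukocyte markers summed to 9.94 to 11.2 and 10.3 to 11.7 CPM, with CSF1R at 8.9 and CD3D, MS4A1 and TYROBP at 0, and the 6 matched endothelial markers to 4.55 to 5.71 and 5.61 to 7.46, with KDR at 5.52 and CLDN5 at 0. The 10 fibroblast markers summed to 34.9 to 46.7 CPM in the controls and 40 to 78.5 in the knock-down libraries, with COL1A1 at 43.6 and PDGFRB at 6.68 over the 6 libraries.

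RRAGC (ENSG00000116954) was lower in all 4 knock-down libraries. It stood at 66.6 and 59.7 CPM with siCtrl, at 18.4 and 12.1 with siRagC1, and at 18.95 and 21.2 with siRagC2. The groups were far apart, and the lowest value came from siRagC1 2. Relative to the mean control, 29.2% and 19.2% of the transcript remained with siRagC1 and 30% and 33.5% with siRagC2, so the cells were depleted of RRAGC mRNA but not devoid of it. In edgeR's quasi-likelihood test the log2 fold change was -1.83 ± 0.20 (SE; Benjamini-Hochberg adjusted p = 0.0181). An exact two-sided permutation test over the 15 arrangements of the libraries gave p = 0.0667, the smallest value that 4 against 2 libraries can give. Without siCtrl 1, siCtrl 2 or siRagC2 1, in turn, the fold change was -1.76, -1.91 and -1.86 and the adjusted p 0.114, 0.107 and 0.0507. In the 8 knock-down libraries of D1221, RRAGC was left at a median of 50.7% of the mean control (lowest 35.5%, highest 66.2%), which does not overlap with the 4 values of D1103. The fitted change there was -1.03 ± 0.12, and the difference between the code series had an unadjusted p of 0.00349 (adjusted p = 0.956).

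Of the 16175 genes tested, 238 were higher and 183 lower after RagC knock-down at an adjusted p under 0.05. These are 1.47% and 1.13% of the genes tested, or 2.60% for both directions together, and 2843 genes (17.6%) had an unadjusted p under 0.05. In bulk RNA, a change in how many cells express a gene and a change in its RNA per cell cannot be told apart. Most changes were small: 9 higher and 6 lower genes passed 2-fold, and 41 and 16 passed 1.5-fold, with a median log2 fold change of 0.39 among the higher and -0.34 among the lower genes. In each of the 421 genes every knock-down library lay on the same side of both controls, a separation that 14% of all tested genes showed upward and 13.4% downward (27.4% in all). The genes that met both the threshold and this separation were again 2.60% of those tested. Calls depended on level, since 4 of 2891 genes under 1 CPM passed (0.138%) against 202 of 4778 genes over 50 CPM (4.23%), where the median SE was 0.0637 against 0.409. Protein-coding genes made up 229 of the higher and 171 of the lower genes. Of the single libraries, the controls moved these counts most. Without siCtrl 1 there were 27 higher and 18 lower genes, without siCtrl 2 there were 12 and 8, and without siRagC2 2, 147 and 88; a control left alone is assumed to vary like the knock-down libraries. More were called with a mean for each siRNA (612 and 528), DESeq2 (406 and 323) or no filter on low counts (570 and 431). A fit over all 18 libraries, in which the D1103 change was still the one tested, called 80 and 87. Below, "in edgeR" refers to the main fit only, although most of the alternatives were also run in edgeR.

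**Figure D1:**
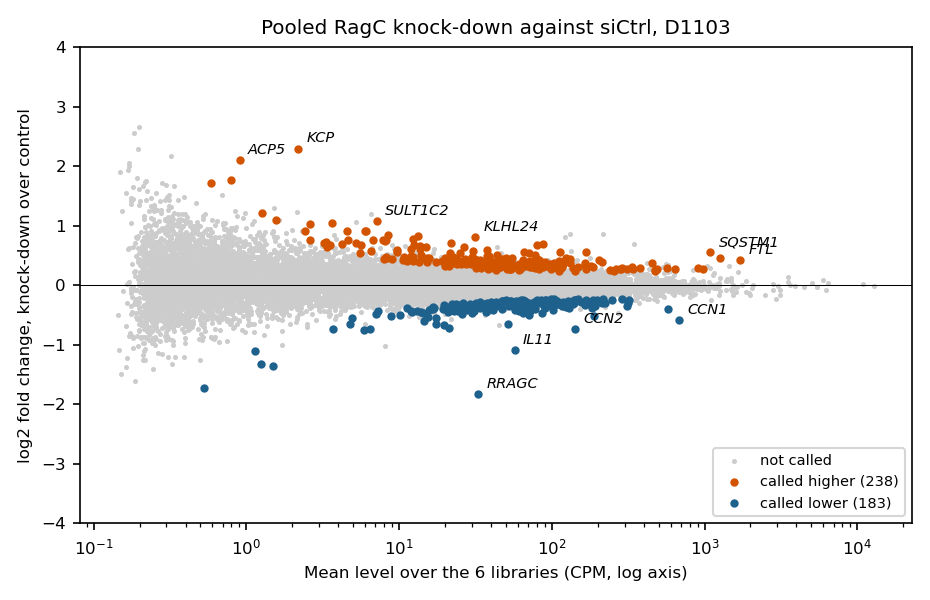
Change against level for the 16175 tested genes. The x axis is the mean level over the 6 libraries in CPM on a log axis, the y axis the log2 fold change of the 4 knock-down over the 2 control libraries; orange points are the 238 higher and blue points the 183 lower genes. RRAGC and IL11 are the lowest of the called genes above 5 CPM, and the spread of the changes narrows as the level rises.

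IL11 (ENSG00000095752), a cytokine of the IL-6 family, had the smallest p of all genes. It stood at 87.3 and 88.8 CPM with siCtrl, at 42.8 and 37.2 with siRagC1 and at 43.6 and 42.3 with siRagC2. The controls were nearly equal and every knock-down library held less than 44 CPM. The log2 fold change was -1.09 ± 0.07 (adjusted p = 1.30e-06). In D1221 the change was -0.35 ± 0.11, and the difference between the series had an unadjusted p of 0.000414 and an adjusted p of 0.956. HBEGF, a ligand of the EGF receptor, fell by 0.42 ± 0.06 on the log2 scale (adjusted p = 0.00509 in edgeR). With IL11 it made up the 2 lower genes of 27 tested secreted cytokines and NF-kappaB targets. The share called in this list was 7.41%, against 2.60% of all tested genes. In edgeR 0 of the 27 were higher, with DESeq2 or a replicate block 1, and without the filter on low counts 2.

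The higher genes with the strongest evidence came from several functions. KLHL24 (ENSG00000114796), a Kelch-domain adaptor listed among the targets of FOXO factors, stood at 22.2 and 20.1 CPM with siCtrl, at 34.8 and 34.8 with siRagC1 and at 38.2 and 39.7 with siRagC2. Its log2 fold change was 0.80 ± 0.08 (adjusted p = 0.000591). KCP (ENSG00000135253), a secreted modulator of BMP signals, had the largest fold change of the called genes at a low level, from 0.604 and 0.598 CPM in the controls to 3.15, 2.77, 3.71 and 2.305 in the knock-down libraries (2.29 ± 0.26, adjusted p = 0.00093). All 4 knock-down values were at least 3 times the higher control. SULT1C2, a sulfotransferase, rose from 4.198 and 4.001 CPM to between 7.69 and 10.1 (1.08 ± 0.14, adjusted p = 0.00183). Next among genes above 5 CPM were ASB2, a ubiquitin ligase subunit (0.91 ± 0.20), TTC39A (0.91 ± 0.16), BMF, a proapoptotic BH3-only protein (0.85 ± 0.15), COL16A1, a collagen chain (0.82 ± 0.18), and SLC14A1, a urea transporter (0.78 ± 0.11). OLFML2A, LTBP1 and BHLHE41, a repressor of the circadian clock, were among the 5 higher genes with the smallest p; OLFML2A rose from 53.03 and 61.7 CPM to between 84.7 and 96.9. The remaining higher genes named by fold, MMP11, PADI1, SHC2, CYRIA, THEMIS2, CCDC144BP, ABCA1 and METRNL, had log2 fold changes between 0.68 (METRNL) and 0.77 (MMP11).

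**Figure D2:**
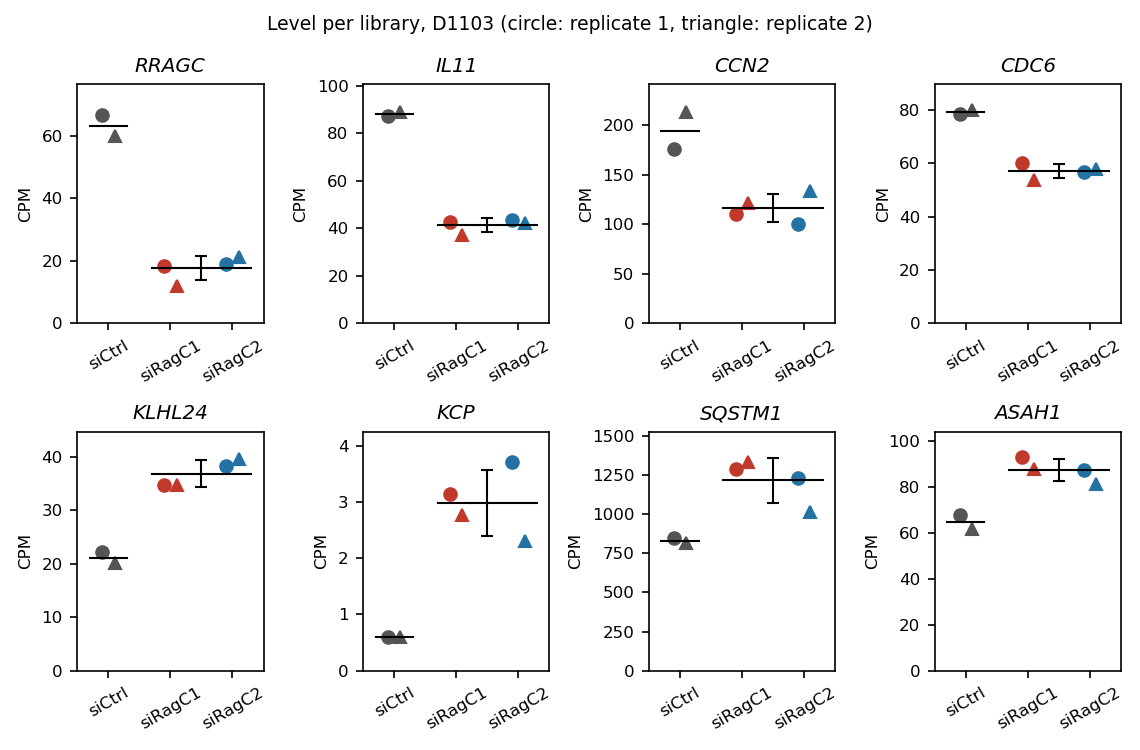
Level per library of 8 called genes in CPM (y axes from 0). Circles are replicate 1 and triangles replicate 2, horizontal lines the mean of the 2 controls and of the 4 knock-down libraries, and bars the SD of the 4; in every panel the knock-down libraries lie on one side of both controls.

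Among the genes that act directly with RagC, members of the folliculin complex rose and the other Rag genes did not pass in edgeR. FLCN, the GTPase-activating subunit for RagC, stood at 45.7 and 45.3 CPM with siCtrl and between 57.2 and 58.7 in the knock-down libraries (log2 fold change 0.35 ± 0.06, adjusted p = 0.00983). FNIP1, its partner, went from 46.5 and 41.9 CPM to between 59.0 and 63.4 (0.46 ± 0.07, adjusted p = 0.00509). These were the 2 higher of 6 tested genes in the list of the folliculin complex and the MiT/TFE factors. The share called was 33.3%, against 2.60% of all tested genes. The knock-down values of FLCN were packed within 2 CPM of each other. RRAGD, the paralog of RRAGC, stood at 3.69 and 4.53 CPM with siCtrl, at 6.30 and 7.14 with siRagC1 and at 5.08 and 6.64 with siRagC2 (0.61 ± 0.15). Its libraries did not overlap, but its adjusted p of 0.0505 missed the threshold. RRAGB had 0.26 ± 0.07 (adjusted p = 0.0825) and RRAGA 0.03 ± 0.06 (adjusted p = 0.850). Of 10 tested Rag and Ragulator genes, RRAGC, the target of the siRNAs, was the 1 that passed in edgeR (10%). RRAGD passed with DESeq2 (adjusted p = 0.0254), without the filter on low counts and with upper-quartile factors. A replicate block and the fit with a mean for each siRNA called RRAGD too. The transcripts of the MiT/TFE factors themselves also missed the threshold in edgeR, though MITF and TFE3 were lower with DESeq2 (adjusted p = 0.0237 and 0.0277) and without the filter: TFE3 had -0.21 ± 0.06 (adjusted p = 0.0671), MITF -0.39 ± 0.13 (adjusted p = 0.145) and TFEB 0.12 ± 0.12 (adjusted p = 0.644). TFEB stood at 7.42 and 7.75 CPM in the controls, and its knock-down values overlapped them. Of 38 tested genes of mTORC1 and its nutrient sensors 0 passed in the main edgeR fit. DESeq2, upper-quartile factors and a filter of 5 CPM each called 2 higher. No filter called 2 higher and 1 lower, and a replicate block 1 higher. The smallest p in the main fit was that of TSC1, a subunit of the complex that inhibits mTORC1 (0.24 ± 0.06, adjusted p = 0.0528).

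Lysosomal genes rose where they passed the test. Of 41 tested hydrolases of the lysosomal lumen, 11 were higher and 0 lower in edgeR (26.8% called, against 2.60% of all tested genes). The median log2 fold change of the 41 was 0.18 against 0.0044 over all tested genes, and 34 had a positive value. Of 16 cathepsins and their inhibitors 4 were higher (median 0.20), and of 35 lysosomal membrane proteins 6 (median 0.16), again with 0 lower in edgeR; DESeq2, no filter and the fit with a mean for each siRNA each called 1 gene of the cathepsin list lower. Libraries were separated upward in 22 of the 41 hydrolases, 8 of the 16 cathepsins and inhibitors and 17 of the 35 membrane proteins, against 14% of all tested genes. They were separated downward in 0, 2 and 1 of these lists' genes, against 13.4% of all tested genes. ASAH1 (ENSG00000104763), the acid ceramidase, stood at 67.6 and 61.7 CPM with siCtrl, at 92.8 and 87.6 with siRagC1 and at 87.2 and 81.3 with siRagC2 (0.43 ± 0.07, adjusted p = 0.00567). NEU1 (ENSG00000204386), a sialidase, stood at 24.01 and 24.03 CPM with siCtrl and between 31.5 and 36.4 in the knock-down libraries (0.47 ± 0.08, adjusted p = 0.00814). PSAP, the precursor of the saposins that help degrade sphingolipids, rose from 791 and 791 CPM in the controls to between 915 and 1016 after knock-down (0.30 ± 0.06). Among the genes of sphingolipid breakdown, GM2A and GALC, chosen after their values were seen, had 0.31 and 0.27. ACP5, tartrate-resistant acid phosphatase, chosen after its values were seen, had the largest fold (2.10 ± 0.50, adjusted p = 0.0488) at levels of 0.369 and 0.207 CPM in the controls and 0.576 to 1.67 after knock-down.

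The proteases of the lysosome that passed were CTSB (0.27), CTSL (0.33), CTSO (0.56) and CTSA (0.27). CTSB, a cysteine protease that can also be secreted, stood at 408 and 453 CPM with siCtrl, at 506 and 533 with siRagC1 and at 524 and 515 with siRagC2. CTSD, the main aspartic protease, chosen after its values were seen, had a positive value of 0.33 ± 0.11 with an adjusted p of 0.177; its siRagC1 libraries (1309 and 1137 CPM) lay further above the controls (926 and 860) than its siRagC2 libraries (1104 and 940). At the lysosomal membrane, SLC17A5, the sialic acid exporter (0.42 ± 0.06), ABCB9, a peptide transporter (0.42 ± 0.08), LAMP2, a structural glycoprotein (0.32 ± 0.06), NPC1, the cholesterol exporter (0.38 ± 0.08), and CLCN7, a chloride-proton exchanger (0.31 ± 0.07), were higher. The sixth, chosen after its values were seen, was NPC2, which hands cholesterol to NPC1, with an adjusted p of 0.0498. The vacuolar proton pump, which acidifies the lysosome, had 0 of 21 tested subunits past the threshold in the main edgeR fit (median 0.052). Without the filter on low counts 1 was called lower. The smallest p in the main fit was that of ATP6V1C1 (0.21 ± 0.06, adjusted p = 0.0837). Without siCtrl 1, 1 hydrolase, 0 cathepsins and 1 membrane protein remained above the threshold, and without siCtrl 2, 0, 0 and 0. The medians then were 0.15, 0.18 and 0.19, and 0.20, 0.25 and 0.14.

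MiT/TFE factors are known to bind sequences built around the hexamer CACGTG, which reads the same on both strands. In the 250 bases before the start of each gene (RefSeq, GRCh38.p14), CACGTG occurred in 1772 of 27305 promoters (6.49%) and in 996 of the 11397 promoters of tested genes that were matched (8.74%). It occurred in 13 of 65 matched genes of the 3 lysosomal lists (20%), in 3 of the 12 that were called higher and in 10 of the 53 that were not called. Among all called genes it occurred in 23 of 182 higher (12.6%) and 14 of 145 lower genes (9.66%). The promoter of NEU1 is shown because NEU1 is among the 5 hydrolases with the smallest p and holds the hexamer upstream of its exons. The stretch is chr6:31862907-31863007 on the minus strand of GRCh38.p14, from 186 to 86 bases upstream of the gene's start, with the hexamer in capitals.
NEU1: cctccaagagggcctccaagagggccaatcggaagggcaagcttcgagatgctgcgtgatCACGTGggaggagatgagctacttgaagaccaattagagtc
A match gives the letters in this window and no evidence of binding.

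Some autophagy genes passed the test. Of 44 tested genes of the autophagy machinery, 3 were higher and 1 lower, with a median of 0.066. The share called was 9.09%, against 2.60% of all tested genes. SQSTM1 (ENSG00000161011), the receptor p62 that is itself degraded by autophagy, stood at 847 and 816 CPM with siCtrl, at 1292 and 1337 with siRagC1 and at 1230 and 1013 with siRagC2 (0.55 ± 0.10, adjusted p = 0.0193). The lowest knock-down value, siRagC2 2, still lay above both controls. RB1CC1, a scaffold of the initiating kinase complex (0.32 ± 0.08), and ATG14, a subunit of the lipid kinase that nucleates autophagosomes (0.30 ± 0.08), were also higher, and ATG4A, a protease that processes ATG8 proteins, was lower (-0.39 ± 0.09). Of 40 genes of lysosome positioning, fusion and exocytosis, VPS41, a subunit of the HOPS tethering complex, was the 1 that passed (0.29 ± 0.06). This share of 2.5% lay near the 2.60% of all tested genes. RAB27B, a GTPase of secretory vesicles chosen after its values were seen, had 0.85 ± 0.17 with an adjusted p of 0.0641. Its levels were 93.3 and 77.0 CPM with siCtrl, 164 and 183 with siRagC1 and 131 and 137 with siRagC2, and it differed between the siRNAs (0.37 ± 0.08, adjusted p = 0.0443).

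Genes of the extracellular matrix changed in both directions. Of 42 tested collagens, laminins and other matrix proteins, 5 were higher and 2 lower (16.7% called, against 2.60% of all tested genes). LTBP1, which holds latent TGF-beta in the matrix, stood at 84.4 and 87.9 CPM with siCtrl and between 118 and 133 after knock-down (0.55 ± 0.07, adjusted p = 0.00135). LAMA3, a laminin chain (0.45 ± 0.08), COL4A1, a chain of basement membrane collagen (0.33 ± 0.07), COL6A2 (0.42, chosen after its values were seen) and COL16A1 were the others that rose. CCN1 (ENSG00000142871) and CCN2 (ENSG00000118523), matricellular proteins and known targets of YAP, were lower. CCN1 stood at 869 and 875 CPM with siCtrl, at 530 and 540 with siRagC1 and at 613 and 646 with siRagC2 (-0.58 ± 0.07, adjusted p = 0.00212). CCN2 stood at 176 and 214 CPM with siCtrl, at 111 and 121 with siRagC1 and at 100.5 and 133 with siRagC2 (-0.74 ± 0.12, adjusted p = 0.0217). With FJX1 they were the 3 lower of 20 tested YAP and TEAD targets (15% called, against 2.60% of all tested genes). In this list 0 were higher in edgeR (median -0.063) and 1 was higher with DESeq2, upper-quartile factors or a replicate block.

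The list of matrix-degrading enzymes had few calls, at 10.3% of its tested members against 2.60% of all tested genes. Of 29 tested matrix metalloproteases, ADAM proteases and their inhibitors, MMP11, stromelysin-3, rose from 5.47 and 5.68 CPM to between 8.32 and 10.8 (0.77 ± 0.13, adjusted p = 0.00932). TIMP2, an inhibitor of metalloproteases, rose by 0.27 ± 0.06, and ADAMTS1, which cleaves proteoglycans, fell by 0.65 ± 0.13 on the log2 scale. MMP14, the membrane-anchored collagenase chosen after its values were seen, overlapped between the groups: its controls stood at 851 and 1246 CPM, further from each other than any of the knock-down libraries, which held 1084 to 1384 (0.20 ± 0.18, adjusted p = 0.642). PLAT, the tissue plasminogen activator, fell by 0.30 ± 0.07 and was the 1 call among 16 plasminogen activators, serpins and surface peptidases. ITGA10, an integrin subunit that binds collagen, fell by 0.66 ± 0.15 and was the 1 call among 27 genes of integrins, adhesion and invadopodia. The share called in these lists was 6.25% and 3.7%, against 2.60% of all tested genes. In the list of TGF-beta and BMP signalling, KCP and the receptor TGFBR1 (0.33 ± 0.08) were higher, and RGMB, a BMP coreceptor, and FST, which binds activin, were lower (-0.52 ± 0.07 and -0.65 ± 0.11) among 24 tested genes.

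DNA replication genes were the list with the highest share of calls. Of 42 tested genes of DNA replication and the G1/S transition, 19 were lower (45.2%, against 1.13% of all tested genes) and 0 higher in edgeR. The median log2 fold change was -0.28. In 35 of the 42 every knock-down library lay below both controls, against 13.4% of all tested genes. In this list 1 gene was called higher without the filter on low counts and 1 in the fit with a mean for each siRNA. CDC6 (ENSG00000094804), which loads the replicative helicase, stood at 78.7 and 80.1 CPM with siCtrl, at 60.1 and 53.9 with siRagC1 and at 56.9 and 58.0 with siRagC2 (-0.47 ± 0.06, adjusted p = 0.00212). E2F1 (ENSG00000101412), a transcription factor that drives S-phase genes, stood at 86.9 and 90.5 CPM with siCtrl, at 68.3 and 58.5 with siRagC1 and at 62.7 and 59.9 with siRagC2 (-0.51 ± 0.07, adjusted p = 0.00218). The controls of both genes were close to each other and the siRNAs overlapped. MCM10, an initiation factor (-0.43 ± 0.07), FEN1, a flap endonuclease (-0.38 ± 0.06), and CDC45, a part of the active helicase (-0.49 ± 0.08), also fell. Chosen after their values were seen, the helicase subunits MCM3, MCM4, MCM5, MCM6 and MCM7 fell by 0.38, 0.29, 0.36, 0.34 and 0.29, and PCNA, the sliding clamp, fell by 0.39. CDC20 was the 1 lower gene (-0.27 ± 0.06) of 30 tested genes of G2 and mitosis, whose median was -0.082. The share called there was 3.33%, against 2.60% of all tested genes. Without siCtrl 1, 5 replication genes were lower (median -0.31), and without siCtrl 2, 0 were (median -0.27).

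E2F factors bind motifs such as TTTCGCGC and TTTGGCGC, whose matches were counted on both strands. In the same 250-base windows these letters occurred in 0.996% of all RefSeq promoters and in 185 of 11397 promoters of tested genes (1.62%). They occurred in 11 of 145 lower genes (7.59%), in 1 of 182 higher genes (0.549%), and in 7 of 35 matched genes of the replication list, 5 of them among the 16 called lower and 2 among the 19 not called. MCM6 is shown because its window held 4 overlapping matches, which form the same run at 2 places. The stretch is chr2:135876462-135876655 on the minus strand of GRCh38.p14, from 212 to 19 bases upstream of the gene's start, with the matches in capitals.
MCM6: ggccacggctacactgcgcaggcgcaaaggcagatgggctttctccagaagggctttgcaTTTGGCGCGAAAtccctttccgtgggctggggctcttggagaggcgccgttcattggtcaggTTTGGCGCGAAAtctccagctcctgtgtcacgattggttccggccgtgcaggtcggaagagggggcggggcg
The shares describe these windows and say nothing of factors bound there.

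Genes of ribosome production, nucleotide synthesis and amino acid supply were lower where they passed the test in the main fit. Of 41 tested ribosome biogenesis factors, 7 were lower and 0 higher in edgeR (17.1% called, median -0.17), and 28 were separated downward. Over all tested genes, 2.60% were called and 13.4% separated downward. RRS1, an assembly factor of the large subunit, stood at 22.2 and 22.2 CPM with siCtrl, at 17.1 and 15.6 with siRagC1 and at 14.5 and 13.7 with siRagC2 (-0.55 ± 0.09, adjusted p = 0.00932). NOP16, NOP2, RRP12 and NOP56, all of the nucleolus, had -0.33, -0.33, -0.33 and -0.23. The ribosomal proteins themselves had 0 of 76 tested members past the threshold in edgeR, with values between -0.15 and 0.05 and a median of -0.033. In purine and pyrimidine synthesis 3 of 21 genes were lower: CTPS1, which makes CTP (-0.33 ± 0.06), RRM2, a ribonucleotide reductase subunit (-0.32 ± 0.06), and PFAS, a purine enzyme (-0.27 ± 0.07). In that list 18 of the 21 were separated downward and the median was -0.16. Of 20 cytosolic tRNA synthetases, MARS1, FARSA, TARS1 and VARS1 were lower (-0.34, -0.27, -0.25 and -0.24). Of 36 genes in the amino acid response, the glutamine transporter SLC1A5 (-0.34 ± 0.07), the transcription factor ATF4 (-0.29 ± 0.07) and the serine enzyme SHMT2 (-0.25 ± 0.06) were lower. In that list DESeq2 called 1 gene higher and 7 lower, a replicate block 1 and 4, and no filter 2 and 7. Without either control in turn, 0 ribosome biogenesis genes, 0 nucleotide genes, 0 tRNA synthetases and 0 amino acid response genes passed, while their medians stayed between -0.19 and -0.13.

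Other lists had few calls each, and the share called ran from 0% to 11.5% (NRF2 targets), against 2.60% of all tested genes. KLHL24 and CCNG2, an atypical cyclin (0.39 ± 0.08), were the 2 higher of 25 FOXO targets (median 0.16). BMF was the 1 call among 14 BCL2 family genes. FTL, the ferritin light chain, rose from 1374 and 1424 CPM to between 1692 and 2006 (0.42 ± 0.07, adjusted p = 0.00826), and with SQSTM1 and the transporter ABCC3 it made up the 3 higher of 26 NRF2 targets, whose median was -0.06. AEN, a nuclease induced by p53, fell by 0.47 ± 0.07 and was the 1 call among 20 p53 targets. ABCA1, the cholesterol exporter of the plasma membrane, went from 64.2 and 59.95 CPM to 105 and 113 with siRagC1 and 92.2 and 91.6 with siRagC2 (0.69 ± 0.08) and was the 1 call among 38 genes of the sterol and fatty acid list. HKDC1, a hexokinase, was the 1 call among 32 glycolysis and hypoxia genes (0.60 ± 0.10). In the main edgeR fit 0 members passed in several further lists. These were the unfolded protein response (26 tested, EDEM1 0.22, adjusted p = 0.0579) and the mitochondrially encoded respiratory chain (13, MT-ND3 0.05). Nuclear respiratory chain genes (37, PPARGC1A 0.62, adjusted p = 0.0905) and interferon-stimulated genes (34, STAT2 0.21, adjusted p = 0.088) were others. The last were epithelial and mesenchymal state (18, S100A4 -0.32, adjusted p = 0.0516) and replication-dependent histones (10, H1-4 -0.48, adjusted p = 0.344). H1-4 lay near 1 CPM and went against its list, where 8 of 10 members were positive (median 0.16, siRagC1 -0.21, siRagC2 0.55). DESeq2 called 1 gene higher in each of the unfolded protein response, nuclear respiratory chain and interferon lists, and 1 lower in the epithelial list. Without the filter on low counts, 2 interferon-stimulated genes were higher and 1 lower.

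**Figure D3:**
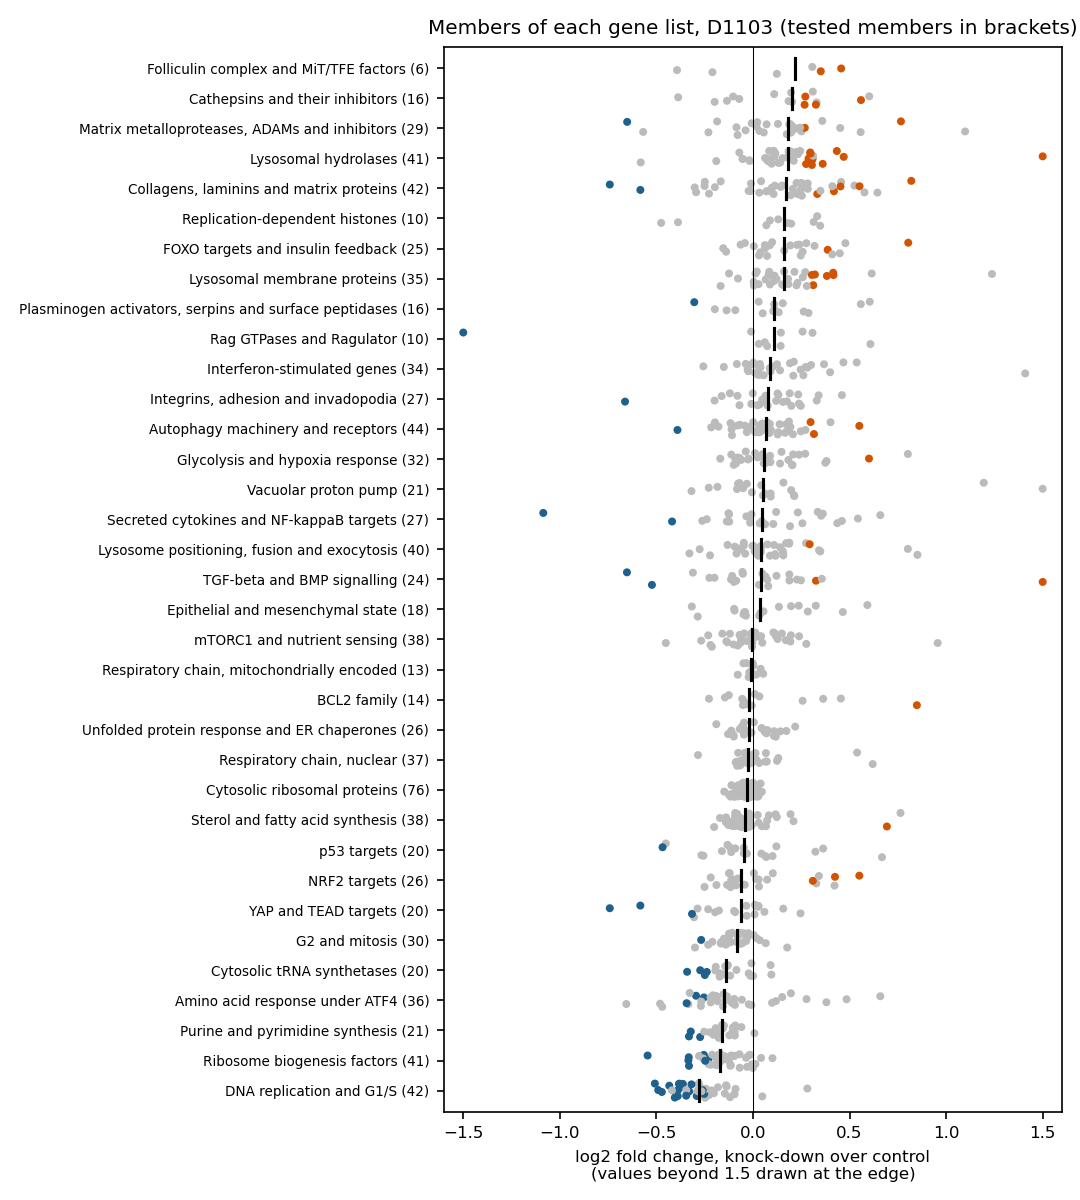
Members of each of the 35 gene lists by log2 fold change of knock-down over control (x axis; 4 values beyond 1.5 are drawn at the edge). Each point is a tested gene, orange if called higher and blue if called lower, and black ticks are list medians; replication genes lie lowest, with a median of -0.28, and lysosomal lists lie to the right of 0.

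The pooled siRNAs differed from each other for some genes. In a fit with a mean for each siRNA, 134 genes were higher and 97 lower with siRagC1 than with siRagC2 (0.828% and 0.6% of those tested, 1.43% in all; 2064 genes, 12.8%, at an unadjusted p under 0.05). Of these 231 genes, 1 (HS1BP3, chosen after its values were seen) was also called in the pooled comparison. SLC2A3, a glucose transporter, stood at 79.1 and 83.6 CPM with siCtrl, at 111 and 120 with siRagC1 and at 171 and 166 with siRagC2. All 4 knock-down libraries lay above the controls, yet the pooled change of 0.80 ± 0.23 had an adjusted p of 0.177, and the siRNAs differed from each other (-0.54 ± 0.06, adjusted p = 6.80e-05). NUCKS1, a chromatin protein, stood at 528 and 512 CPM with siCtrl, 534 and 550 with siRagC1 and 318 and 363 with siRagC2, so that it was low with siRagC2 alone (difference 0.67 ± 0.07). BTRC, a ubiquitin ligase subunit, PPP3CA, a calcineurin subunit, SLC20A1, a phosphate transporter, and SOWAHC were also lower with siRagC2 than with siRagC1 (0.82, 0.64, 0.64 and 0.86). ERRFI1, a feedback inhibitor of EGF receptors, went the other way, at 663 and 686 CPM with siCtrl, 469 and 503 with siRagC1 and 694 and 757 with siRagC2. CDK6, a G1 kinase, and the histone genes H2BC12 and H1-2 were higher with siRagC2 (-0.60, -0.74 and -0.94 for siRagC1 minus siRagC2). In D1221 the difference for CDK6 had the other sign (0.12 ± 0.12), while H2BC12 and H1-2 kept theirs (-0.31 and -0.34). ATP6V0D2, a subunit of the proton pump chosen after its values were seen, was high with siRagC1 (10.8 and 10.5 CPM) and less so with siRagC2 (5.26 and 5.58) against 4.06 and 3.06 in the controls; the difference was 0.97 ± 0.14 (adjusted p = 0.000874) and the pooled adjusted p 0.234. For RRAGC the siRNAs differed by -0.39 ± 0.21 (adjusted p = 0.542). Without siRagC1 1, siRagC1 2, siRagC2 1 or siRagC2 2, in turn, the counts were 56, 66, 55 and 83 for genes higher with siRagC1 and 24, 48, 31 and 61 for genes lower; without siCtrl 1 or siCtrl 2 the lower genes numbered 155 and 152. A fit over all 18 libraries, tested for the same D1103 difference, called 13 and 4.

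**Figure D4:**
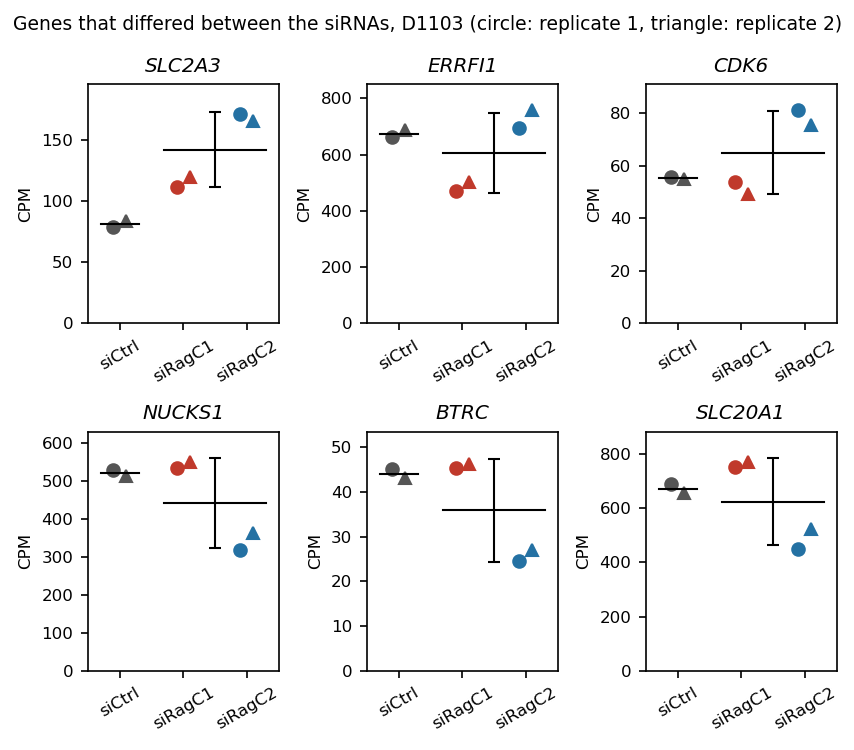
Level per library in CPM (y axes from 0) of 6 genes that differed between siRagC1 and siRagC2. Circles are replicate 1 and triangles replicate 2, lines the means of the 2 controls and the 4 knock-down libraries, bars the SD of the 4; for NUCKS1, BTRC and SLC20A1 the siRagC2 libraries are low, and for SLC2A3, ERRFI1 and CDK6 they are high.

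The D1221 libraries have controls of their own, so the same contrast could be set beside D1103. Of the 238 genes higher in D1103, 233 had a positive change in D1221 (97.9%), and of the 183 lower genes 166 had a negative one (90.7%), against a shared sign in 9587 of all 14990 genes tested in both (64%). The changes were smaller there: the median fell from 0.39 to 0.19 for the higher genes and went from -0.34 to -0.11 for the lower genes. These genes were selected in D1103, which favours larger values in D1103. On its own, D1221 called 7 higher and 2 lower genes of 15016 tested (0.0466% and 0.0133%, together 0.0599%), while 1539 (10.2%) had an unadjusted p under 0.05, and 4 and 1 of the D1103 calls passed there in the same direction. The direct test of a difference between the series called 0 of 16079 genes (0%) in edgeR, where 678 (4.22%) passed at the unadjusted level of 0.05; DESeq2 and limma-voom also called 0. KCP was high in both series (2.29 and 1.84 ± 0.29). The list medians in D1221 were 0.13 for hydrolases, 0.15 for cathepsins, 0.098 for lysosomal membrane proteins, -0.091 for DNA replication and -0.097 for ribosome biogenesis. The D1103 medians of these lists were 0.18, 0.20, 0.16, -0.28 and -0.17. E2F1 had -0.51 in D1103 and -0.09 in D1221 (difference unadjusted p = 0.00463, adjusted p = 0.956). KIF26B and SMPD3, chosen after their values were seen, changed in D1103 (1.22 and -1.35) and stood at 0.00 and -0.02 in D1221, with an adjusted p of 0.956 for either difference. Of the genes that separated the siRNAs in D1103, 122 of 134 (91%) and 77 of 96 (80.2%) kept the sign of that difference in D1221, against 57.1% of all genes, but 0 passed there and the median difference was 0.10 and -0.08 in place of 0.42 and -0.38.

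**Figure D5:**
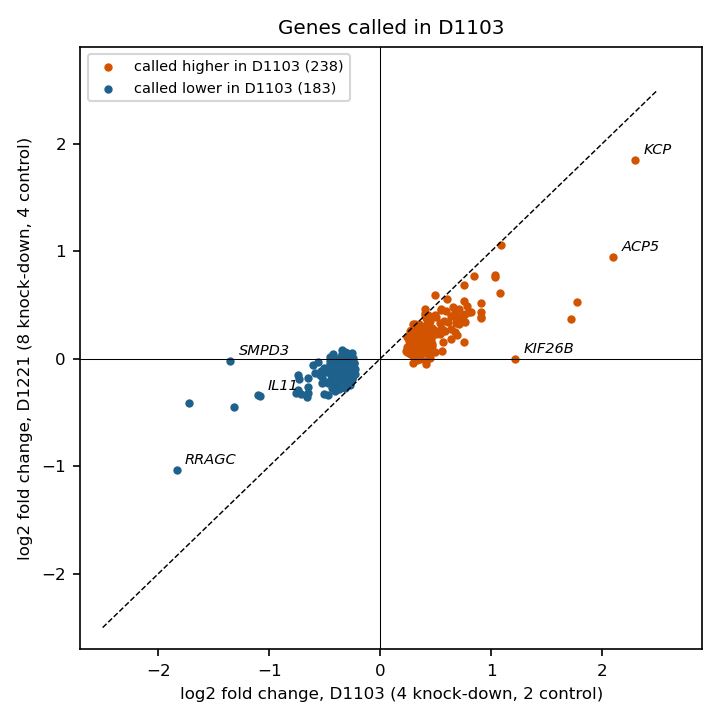
The 421 genes called in D1103, by log2 fold change in D1103 (x axis, 4 knock-down and 2 control libraries) and in D1221 (y axis, 8 and 4 libraries). Orange points were called higher and blue points lower in D1103, and the dashed line marks equal changes; most points lie between the horizontal axis and the dashed line.

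Higher and lower genes had different median lengths and base compositions, which were not tested. The median exon length was 7329 bases for higher genes, 4687 for lower genes and 4484 for genes not called, with a median GC content of 46.8%, 52.4% and 48.3%. Among genes of at least 5 CPM, the median log2 fold change went from -0.034 in the shortest quintile to 0.048 in the longest in D1103; in D1221 it was 0.027 and -0.00066. The longest quintile of genes held 91 of the higher and 19 of the lower calls, and the shortest 19 and 45. Several of the higher genes outside the lists encode very large proteins; chosen after their values were seen, AHNAK, VPS13C, VPS13D and LRP1 had 0.46, 0.58, 0.50 and 0.55. With an offset for length and GC in each library, an alternative added after the data were seen, 235 genes were higher and 263 lower, 190 and 170 of them shared with the counts above. Under that offset 13 hydrolases and 4 membrane proteins were higher, and 20 replication and 8 ribosome biogenesis genes lower. The part of length and GC in single genes was not tested.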

How the data were processed

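The table deposited by the authors holds raw counts for 57820 Ensembl identifiers in 18 libraries. The tools named in the submitters' processing notes are STAR 2.7.6a and cutadapt 0.6.2, and the builds GRCh37 and hg19. How reads were counted, with which strand setting and annotation, is not given in the sources used; reads of overlapping or antisense genes may therefore not be told apart. Symbols were matched for 39538 identifiers from the identifier tables supplied. Groups, numbers and library codes came from the labels.

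Counts of the 6 D1103 libraries were fitted with edgeR 4.0.16 (R 4.3.3), with filterByExpr on control against knock-down, TMM factors, a robust quasi-likelihood F test with 4 residual degrees of freedom, and Benjamini-Hochberg adjustment over all 16175 tested genes. Genes were called at an adjusted p under 0.05 with no minimum fold. A fit with 3 groups compared the siRNAs, and a fit over 18 libraries tested the difference between code series. Where all 18 libraries served as an alternative, the D1103 contrast alone was tested. The D1221 libraries then entered only the filter, the scaling and the estimate of spread. CPM values used TMM-scaled library sizes. Alternatives used DESeq2 1.42.0, limma 3.58.1 (voom), other factors, filters, thresholds, designs, a replicate block and each library left out. Exon lengths and GC came from GENCODE v29 gene models on GRCh38, matched by identifier. Promoters came from RefSeq GRCh38.p14, matched by symbol. The procedure was tested on simulated data.

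Of 1075 genes in 35 lists and 6 marker lists, 1062 were matched, 998 tested and 13 not matched. The members and lists were chosen with earlier results of these data known. Genes are named by a rule: RRAGC, the other Rag genes, MITF, TFE3 and TFEB; the 15 higher and 15 lower called genes of at least 5 CPM with the largest change and separated libraries; up to 5 called members per list by smallest p, or the 1 with the smallest p; 5 per direction between the siRNAs; and the 5 smallest p per direction. The results of some genes that the rule names are not reported here. Single marker genes are given as checks of the cell line, chosen from their lists after their values were seen, and any other gene is said to have been chosen after its values were seen.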

Additional observations from a re-analysis of the deposited data

Results flagged for a closer look

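Among the 111 named genes examined, 2 had 1 of their 4 knock-down libraries far from the other 3, with a gap that exceeded Dixon's critical value for 4 samples. RRM2, the ribonucleotide reductase subunit, stood at 125 CPM in siRagC2 2 against 110 to 112 CPM in the other 3, still below both controls (139 and 147 CPM). CCNG2 stood at 40.7 CPM in siRagC2 1 against 47.7 to 49.1 CPM in the other 3, still above both controls (35.9 and 35.4 CPM). Chance alone sets apart about 1 in 20 unselected groups. These genes were chosen from the same data, many of them for separated libraries, so 2 of 111 cannot be set against that rate.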

How the results depend on the processing

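RLE factors, upper-quartile factors, a filter of 5 CPM and limma-voom left the pooled counts within 1.5 times of 238 and 183. Counts moved further without a filter (570 and 431), with DESeq2 (406 and 323) and with a mean for each siRNA (612 and 528). Fewer passed at an adjusted p under 0.01 (38 and 25) or with a minimum fold of 1.2 (7 and 1). The D1103 contrast in the fit over all 18 libraries also called fewer (80 and 87). Leaving out 1 library gave 12 to 240 higher and 8 to 181 lower genes. Same-numbered libraries deviated together only weakly (correlations of 0.222, 0.112 and 0.194 for the 3 pairs of groups), and 2 numbers do not establish pairs; with the replicate block 327 genes were higher and 249 lower, and with the block and the length and GC offset 354 and 407. Between the siRNAs, 290 and 230 genes passed without a filter, 417 and 379 with the replicate block, and 13 and 4 over all 18 libraries; leaving out 1 library gave 55 to 191 and 24 to 155. RRAGC stayed between -1.85 and -1.83 with all 6 libraries kept, and leaving out 1 library gave -1.94 to -1.69. In the main edgeR fit its adjusted p of 0.0181 missed 0.01, and with a minimum fold of 1.2 it was 0.140. It was 1.22e-09 with DESeq2, 0.000134 without a filter and 0.00487 with a mean for each siRNA. The difference between the code series gave 0 genes under every alternative run. Among 110 other named genes, 0 that passed in the main fit or in an alternative had opposite signs in the 2. Sign changes of genes that passed in neither were not counted. Of the 85 that passed in the main fit, 39 missed the threshold for the D1103 change in the fit over all 18 libraries. The cause of these shifts was not tested.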

Other observations

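Several called genes outside the lists fell into recognisable functions; they were chosen after their values were seen, so no count of them is a test. Lysosomal cargo and trafficking genes were among the higher ones: GRN, the precursor of lysosomal granulins, stood at 239 and 264 CPM with siCtrl and between 292 and 314 after knock-down (log2 fold change 0.26 ± 0.06, adjusted p = 0.0318), IGF2R, the sorting receptor for lysosomal enzymes, had 0.28 ± 0.06, LGALS3, a lectin that marks damaged lysosomes, had 0.28 ± 0.06, and LYST, which controls lysosome size, had 0.44 ± 0.10. SIGLEC15, known together with ACP5 from osteoclasts, had 1.09 ± 0.27 at a level under 3 CPM in every library.

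Lower genes outside the lists included further parts of DNA copying and repair. DNMT1, which copies DNA methylation, stood at 362 and 362 CPM with siCtrl and between 281 and 311 after knock-down (-0.30 ± 0.06, adjusted p = 0.0169). DTL, POLD1, RFC5, XRCC2, XRCC3 and RECQL4 had -0.35, -0.37, -0.28, -0.37, -0.42 and -0.34. In D1221 the values of POLD1, XRCC3 and RECQL4 were -0.01, 0.05 and -0.01, with an adjusted p of 0.956 for each difference between the series. The snoRNA host genes SNHG1, SNHG3 and SNHG7 had -0.27, -0.45 and -0.27.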
